A study of Mus musculus with 30 samples.

Results

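Transcript levels of neurotrophins and their receptors are described for 7 genes, Bdnf, Ntf3, Ntrk2, Ntrk3, Ngfr, Sort1 and Vgf, taken by symbol from a table of 18240 genes. All 7 were present, and all 7 passed the filter of a mean normalized count of at least 10. Neurotrophins are secreted growth factors that keep neurons alive, shape dendrites and adjust synapses. They are made as pro-forms and cleaved by proteases. Brain-derived neurotrophic factor (Bdnf) signals mainly through TrkB, the receptor tyrosine kinase encoded by Ntrk2, and neurotrophin 3 (Ntf3) mainly through TrkC, encoded by Ntrk3. The p75 receptor (Ngfr) binds all mature neurotrophins and, together with sortilin (Sort1), the pro-forms. Bdnf is transcribed from several alternative first exons, some of which respond to neuronal activity, and Vgf, a neuropeptide precursor, is a gene that Bdnf induces. In cortex Bdnf is made mostly by excitatory neurons, whereas Ngfr is known for its high level in cholinergic neurons of the basal forebrain.

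Gene expression was measured by bulk RNA sequencing of the prefrontal cortex in C57BL/6J mice, aged 40 days. The 30 libraries come from wild-type (WT) mice and mice heterozygous (HT) for a mutation of Adnp, a chromatin gene mutated in a syndromic form of autism. The HT libraries comprise 4 female and 3 male ones from vehicle-treated mice, 4 of each sex after fluoxetine, which blocks serotonin reuptake, and 3 female and 4 male ones after lithium, which is used as a mood stabilizer. All WT libraries analysed here, 4 of each sex, were from vehicle-treated mice, so each drug was compared on the HT background only. How much drug was given and for how long, and what the Adnp allele deletes, the sources used here do not state. The labels do not say whether each library came from a separate mouse, so p-values reflect only the spread among these libraries.

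The depth was 23771758 to 34307061 gene-assigned reads per library, and all values below are read counts scaled to a common library size (normalized counts) unless stated otherwise. The count under the symbol Adnp was 1703 to 2228 in the 8 WT and 1887 to 2491 in the 22 HT libraries. It was higher in HT, but the overlapping gene Gm20716 shares exons with Adnp, and without the deleted part the count of Adnp alone does not check the labels. The sum of both was 4226 to 4433 in WT and 3404 to 3887 in HT libraries, so it followed the genotype label of all 30 libraries. The cortical identity of the tissue was checked on 8 markers of excitatory cortical neurons, all 8 detected, whose summed count was 43816 to 74029. Markers of basal forebrain cholinergic neurons, which cortex largely lacks, were highest in 6 libraries. These were HT fluoxetine females 2 and 4, HT vehicle female 4, HT vehicle males 1 and 3 and WT vehicle male 3. The summed count of 7 markers of basal forebrain cholinergic neurons was 417 to 982 in these 6 libraries and 41.5 to 249 in the other 24. The division at 400 was chosen after seeing the data, and for genotype and for each drug against HT vehicle the values of the 7 genes are also given without these libraries. Then 1 HT vehicle male library is left, which is assumed to vary like the other groups. The other 24 libraries also held markers from outside cortex, to different degrees. The striatal gene Drd2 was 416.5 in WT vehicle male 1, 332 in HT lithium female 2 and 266 in WT vehicle female 1. Its median over all libraries was 44.8. The summed count of 8 olfactory bulb and neuroblast markers ran from 2025 to 19837 over the 30 libraries.

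The promoters of Bdnf are shown first, because Npas4, a neuronal activity-dependent transcription factor that acts on Bdnf, rose under both drugs in these libraries. RefSeq lists 7 start sites for Bdnf, 2 for Ntf3 and 1 each for Ntrk2 and Ngfr in build GRCm38.p6, and the 250 bases upstream of each were searched on both strands. The motifs were CGTCA, the core of the cAMP response element to which CREB binds, its full form TGACGTCA, which contains it, the E-box CACGTG, the AP-1 site TGANTCA and TCGTG, the core that Npas4 binds with an Arnt-family partner. Bdnf start sites 1 and 3, counted along the chromosome, were the only ones of the 11 with TCGTG. Below, capitals mark the motif matches (CACGA is TCGTG on the other strand), both runs are on the plus strand and end 1 base before the start site.
Bdnf start site 1, chr2:109674450-109674699: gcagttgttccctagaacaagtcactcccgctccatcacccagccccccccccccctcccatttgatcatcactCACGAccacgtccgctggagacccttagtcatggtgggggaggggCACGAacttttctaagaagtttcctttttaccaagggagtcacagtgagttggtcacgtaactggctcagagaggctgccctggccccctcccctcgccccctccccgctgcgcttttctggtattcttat
Bdnf start site 3, chr2:109692186-109692435: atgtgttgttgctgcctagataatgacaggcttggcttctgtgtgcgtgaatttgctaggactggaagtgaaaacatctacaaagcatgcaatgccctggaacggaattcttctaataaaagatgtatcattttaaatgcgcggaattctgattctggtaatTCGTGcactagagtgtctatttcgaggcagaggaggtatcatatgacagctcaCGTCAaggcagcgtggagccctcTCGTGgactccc
At start site 3 the match to CGTCA began 35 bases upstream of the start, and the matches to TCGTG began 88 and 12 bases upstream. At start site 1 the matches to TCGTG began 176 and 131 bases upstream. Of all 32851 promoter windows of this length, 17.8% held CGTCA, 13.3% TCGTG and 1.55% TGACGTCA. The second Bdnf start site held TGANTCA (6.75% of all windows) and the first Ntf3 start site CACGTG (6.02% of all windows). The counts used here sum all transcripts of a gene, so they do not tell which Bdnf start site was used, nor the full-length from the truncated forms of Ntrk2 and Ntrk3.

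By limma, 0 of the 7 genes passed the test between HT and WT vehicle (0.731% of all genes tested did), 0 under fluoxetine (0.0357%) and 0 under lithium (0.0892%). EdgeR and DESeq2 also called 0 of 7 in each, and 0 of 7 had an unadjusted p under 0.05 by any of the 3 tools. Of all genes 6.60%, 2.63% and 5.72% were under 0.05 by limma, so 0 of 7 does not set these genes apart. The intervals of Ntrk2, Ntrk3 and Sort1 were narrow. Levels are compared between genes per kilobase of exon, counting every annotated exon base once. On that scale Sort1 was the most abundant at 2293 normalized counts per kilobase, followed by Vgf (1733), Ntrk2 (986), Ntrk3 (228) and Bdnf (136). Ngfr (15.4) and Ntf3 (13.2) were lowest. With the longest coding transcript as the length, Ntrk2 (2176) stood above Vgf (1818), and the order of the other genes was the same. The TrkB gene was thus more abundant per kilobase than the gene of its ligand in either count. Across the 30 libraries the coefficient of variation was 5.13% for Ntrk2, 6.41% for Sort1, 6.68% for Ntrk3, 12.2% for Vgf, 18.7% for Bdnf, 26.2% for Ntf3 and 74.6% for Ngfr. For each of the 7 genes, when the 8 groups were ordered by their means, all 7 pairs of neighbours in that order had overlapping ranges. Neighbours lie close in mean, so this says little. Of all 28 pairs of groups, 24 overlapped for Bdnf and for Ntrk3, 25 for Ntrk2, 27 for Ntf3 and for Vgf, and 28 for Ngfr and for Sort1. The share over all genes was not computed.

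**Figure D1:**
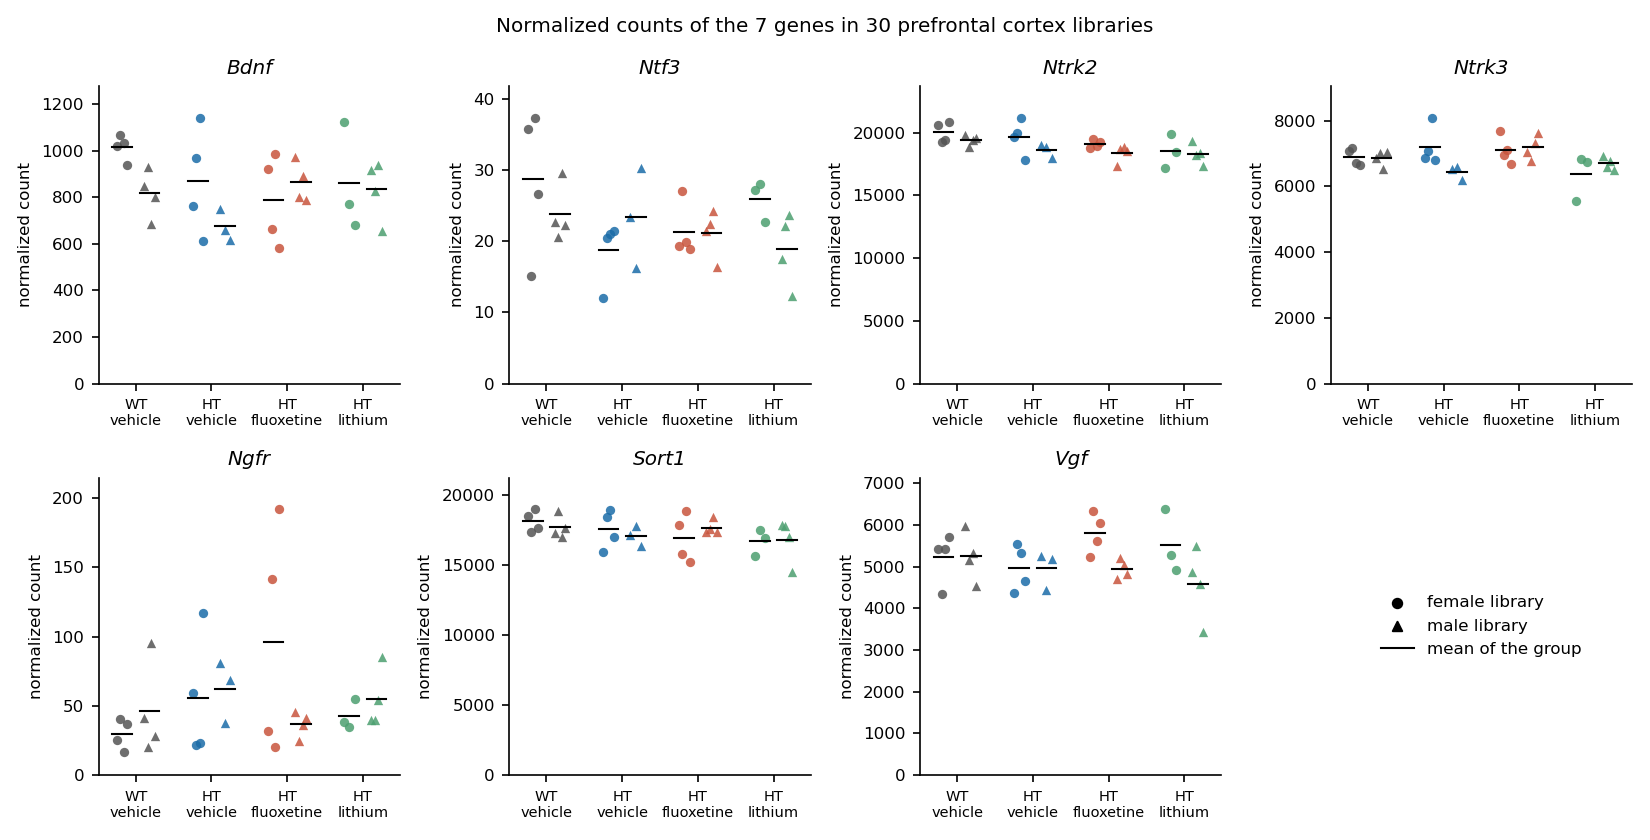
Normalized counts of Bdnf, Ntf3, Ntrk2, Ntrk3, Ngfr, Sort1 and Vgf (vertical axes, each from 0) by genotype and treatment (horizontal axes). Circles are female and triangles male libraries, and bars are group means. Ntrk2, Ntrk3 and Sort1 vary little, while Ngfr runs from 16.9 to 192 and its highest libraries are HT fluoxetine females 4 and 2.

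Bdnf lies on chromosome 2 at 109674700 to 109727007, plus strand (GRCm38). Among WT vehicle libraries, females 1 to 4 had normalized counts of 1020, 1068, 1032 and 938, while males 1 to 4 had 850, 931, 685 and 800. The HT vehicle females had 764, 968, 1141 and 614, the males 749, 660 and 618. The 4 WT females thus lay above all 4 WT males, but narrowly (lowest female 938, highest male 931). WT male 3 (685) is among the 6 libraries with high cholinergic markers, and no WT female is. The share of all genes with such separate ranges was not computed. The HT vehicle females spread over nearly the whole range of the gene. The sexes were not tested within WT. Over all conditions, males against females gave a log2 difference of -0.13 for Bdnf (SE 0.0934, limma adjusted p = 0.797), which was not called. The fluoxetine females had Bdnf at 921, 664, 988 and 581, the fluoxetine males at 975, 803, 894 and 790. The lithium females had 1123, 773 and 683, and the lithium males 918, 825, 938 and 653. The lowest values, 581, 614 and 618, were in HT fluoxetine female 4, HT vehicle female 4 and HT vehicle male 3, which are 3 of the 6 libraries with cholinergic markers. By condition the mean was 916 ± 130 (SD, n = 8) in WT vehicle, 788 ± 198 (n = 7) in HT vehicle, 827 ± 146 (n = 8) under fluoxetine and 845 ± 163 (n = 7) under lithium. The condition ranges overlapped.

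The sex-averaged difference of Bdnf between HT and WT vehicle was -0.26 on the log2(normalized count + 1) scale (SE 0.132, 95% confidence interval of the fold change 0.69 to 1.01, limma adjusted p = 0.787). The unadjusted p was 0.0586. Leaving out each of the 15 libraries in turn gave -0.33 to -0.18. Against HT vehicle, fluoxetine gave 0.11 (SE 0.132, interval of the fold 0.892 to 1.30, limma adjusted p = 1) and lithium 0.14 (SE 0.137, interval 0.905 to 1.34, limma adjusted p = 0.881). With 1 library left out, the fluoxetine value ran from 0.030 (without HT vehicle female 4) to 0.18 (without HT vehicle female 3) and the lithium value from 0.035 (without HT lithium female 1) to 0.21 (without HT lithium female 3). With the 6 libraries of high cholinergic markers left out Bdnf gave -0.24 for genotype, 0.20 under fluoxetine and 0.077 under lithium, and with the cholinergic markers as a covariate 0.050 under lithium. Both drug comparisons share the HT vehicle libraries. Rises of Bdnf above these upper bounds lie outside the intervals, and smaller changes do not. In males Bdnf was 790 to 975 in the 4 fluoxetine and 618 to 749 in the 3 HT vehicle libraries. HT vehicle males 1 (749) and 3 (618) are among the 6 libraries with high cholinergic markers, and the fluoxetine males are not. What part this had in the separation was not tested, and the share of all genes with such separate ranges was not computed. The difference in males was 0.36 (SE 0.194, limma adjusted p = 0.958), whereas in females it was -0.14 (SE 0.18). The test of the difference between the sexes gave 0.50 (SE 0.264, unadjusted p = 0.0726, limma adjusted p = 0.779). Over all genes 0.0178% were called by limma for fluoxetine in males and 0.00% for the difference between the sexes.

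Ntf3, the TrkC ligand (chromosome 6, 126101412 to 126166910, minus strand), was near the low end of what the libraries measure. Its lowest, median and highest counts were 15.1, 24.6 and 37.4 in WT vehicle (n = 8), 12.1, 21 and 30.3 in HT vehicle (n = 7), 16.4, 20.7 and 27.1 under fluoxetine (n = 8) and 12.4, 22.7 and 28.0 under lithium (n = 7). The ranges of the conditions overlapped, and both highest values were in WT vehicle females 1 and 3 (35.9 and 37.4). HT against WT vehicle gave -0.30 (SE 0.186, limma adjusted p = 0.915), with -0.54 in females (SE 0.253, unadjusted p = 0.0411, limma adjusted p = 0.935) and -0.054 in males (0.226% of all genes were called there). The difference between the sexes was 0.49 (SE 0.373, limma adjusted p = 1). Over all genes 0.256% were called in the genotype comparison in females. Fluoxetine gave 0.044 (SE 0.186) and lithium 0.094 (SE 0.194). These values of Ntf3 without the 6 libraries of high cholinergic markers were -0.51 for genotype, 0.26 under fluoxetine and 0.36 under lithium, none of them called. The intervals of the fold change of Ntf3 reached from 0.791 to 1.34 and from 0.811 to 1.41. At its 11 to 42 reads per library, changes within these intervals were not detectable.

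Ntrk2, the TrkB gene (chromosome 13, 58806569 to 59133970, plus strand), was 18876 to 20865 in WT vehicle (median 19491, n = 8) and 17800 to 21170 in HT vehicle (median 19045, n = 7). It was 17352 to 19458 under fluoxetine (median 18818, n = 8) and 17166 to 19911 under lithium (median 18363, n = 7). The WT range overlapped with each of the HT ranges. HT against WT vehicle gave -0.045 (SE 0.0375), fluoxetine against HT vehicle -0.030 (SE 0.0375) and lithium against HT vehicle -0.055 (SE 0.0389). The intervals of the fold change were 0.919 to 1.02, 0.929 to 1.03 and 0.911 to 1.02, narrower than those of Bdnf. The 3 values of Ntrk2 without the 6 libraries of high cholinergic markers were -0.014, -0.070 and -0.086. Set against WT vehicle, lithium-treated HT libraries were lower by 0.933-fold (log2 -0.10, SE 0.0375, unadjusted p = 0.0131, limma adjusted p = 0.171) and fluoxetine-treated ones by 0.949-fold (log2 -0.075, SE 0.0361, unadjusted p = 0.0477, limma adjusted p = 0.404). Neither passed the threshold.

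Ntrk3, the TrkC gene (chromosome 7, 78175959 to 78738012, minus strand), had the largest difference of the 7 genes between the drugs by its unadjusted p. The fluoxetine females had 7688, 6967, 7116 and 6693, the fluoxetine males 7054, 6764, 7316 and 7615. The lithium females were at 5539, 6835 and 6750, and the lithium males at 6930, 6601, 6768 and 6491. The lowest lithium library, female 1, lay far below the others, and the remaining 6 lithium libraries overlapped with the lower fluoxetine libraries. Fluoxetine was higher than lithium by 1.10-fold (log2 0.13, SE 0.0448, unadjusted p = 0.00656), but not after adjustment over all genes (limma adjusted p = 0.603). Without HT lithium female 1 the difference was 0.083, the smallest of the 15 values with 1 library left out. Against HT vehicle (6194 to 8082, n = 7) fluoxetine gave 0.071 (SE 0.0448) and lithium -0.061 (SE 0.0465), and HT against WT vehicle (6532 to 7160, n = 8) gave -0.016 (SE 0.0448, interval of the fold 0.928 to 1.05). Ntrk3 without the 6 libraries of high cholinergic markers gave 0.16 between the drugs, 0.069 under fluoxetine, -0.092 under lithium and 0.0028 for genotype.

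The drug effects on Ntrk3 were also set against each other by sex. Lithium gave -0.18 in females (SE 0.0658, unadjusted p = 0.0113, limma adjusted p = 1) and 0.057 in males (SE 0.0658, with 0.0773% of all genes called). The difference between the sexes was 0.24 (SE 0.093, unadjusted p = 0.0173, limma adjusted p = 0.477). Fluoxetine gave -0.016 in females and 0.16 in males (SE 0.0658, unadjusted p = 0.0237, limma adjusted p = 0.958), with a difference between the sexes of 0.17 (SE 0.0897, limma adjusted p = 0.779). None passed the threshold. Of all genes, limma called 0.00% for lithium in females and 0.00% for the difference of the lithium effect between the sexes.

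Sort1, which encodes sortilin (chromosome 3, 108284082 to 108361511, plus strand), was 16978 to 18977 in WT vehicle (median 17663, n = 8) and 15933 to 18931 in HT vehicle (median 17118, n = 7). It was 15230 to 18891 under fluoxetine (median 17481, n = 8) and 14519 to 17895 under lithium (median 17028, n = 7). Each of the 28 pairs of groups overlapped. The lowest library was HT lithium male 4 and the next lowest HT fluoxetine female 4. HT against WT vehicle gave -0.048 (SE 0.0508), fluoxetine -0.0026 (SE 0.0508) and lithium -0.049 (SE 0.0527). The intervals of the fold change were 0.90 to 1.04, 0.929 to 1.07 and 0.897 to 1.04. Sort1 without the 6 libraries of high cholinergic markers gave -0.022, 0.023 and -0.085 in these comparisons.

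Vgf (chromosome 5, 137026392 to 137033351, plus strand) was 4335 to 5962 in WT vehicle (median 5377, n = 8) and 4364 to 5533 in HT vehicle (median 5185, n = 7). It was 4699 to 6319 under fluoxetine (median 5219, n = 8) and 3435 to 6370 under lithium (median 4909, n = 7). Both its lowest and its highest library were lithium-treated, male 4 and female 1. HT against WT vehicle gave -0.075 (SE 0.0855, limma adjusted p = 0.954), fluoxetine 0.11 (SE 0.0855, interval of the fold 0.957 to 1.22, limma adjusted p = 1) and lithium 0.011 (SE 0.0888, interval 0.888 to 1.14, limma adjusted p = 0.985). Vgf without the 6 libraries of high cholinergic markers gave -0.13, 0.13 and 0.073. Males were lower than females by 0.917-fold over all conditions (4933 ± 578 against 5369 ± 621, SD, n = 15 each; log2 -0.13, SE 0.0605, unadjusted p = 0.049, limma adjusted p = 0.617). It did not pass the threshold. Of the 28 pairs of groups, 27 overlapped for Vgf. The exception was fluoxetine females (5236 to 6319) and fluoxetine males (4699 to 5203). The sexes were not tested within fluoxetine. Fluoxetine females 2 and 4 are among the 6 libraries of high cholinergic markers, and no fluoxetine male is. The share of all genes with such separate ranges was not computed.

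Between HT and WT vehicle 6 of the 7 differences were negative, with a median of -0.048 against -0.0010 over all genes tested. Between the drugs, and between each drug-treated HT condition and WT vehicle, 0 of 7 were called by limma, edgeR and DESeq2. In each of these, 1 of 7 had an unadjusted p under 0.05 by all 3 tools, Ntrk3 in the first and Ntrk2 in both others. Limma called 0.00%, 1.49% and 1.97% of all genes there, and 6.86%, 12.1% and 17.7% had an unadjusted p under 0.05, so 1 of 7 is near the background. Between the sexes 0 of 7 were called by each tool, against 0.214% of all genes by limma, and Vgf had an unadjusted p under 0.05 (by DESeq2 also Ntrk2), as had 8.05% of all genes by limma. Because so few genes were called in these comparisons, a count of 0 of 7 does not set these genes apart.

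**Figure D2:**
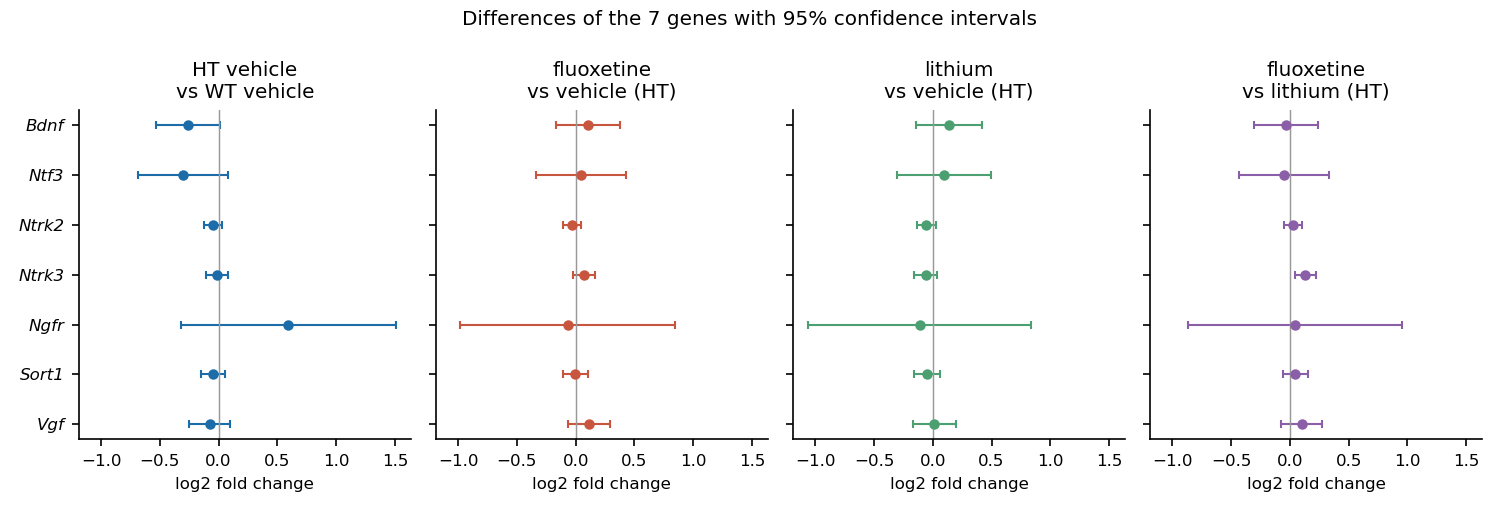
Log2 fold change (horizontal axis) of each of the 7 genes (vertical axis) in 4 comparisons. Points are the sex-averaged estimates and bars their 95% confidence intervals. The bars of Ntrk2, Ntrk3 and Sort1 are short, those of Ngfr are the longest, and of the 28 bars that of Ntrk3 between the drugs does not reach 0.

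Ngfr, the p75 receptor gene (chromosome 11, 95568818 to 95587735, minus strand), differed between libraries far more than between conditions. WT vehicle females had 25.1, 40.6, 16.9 and 37.1 normalized counts, the males 41.0, 20.6, 95.2 and 28.2. HT vehicle females had 59.3, 21.5, 23.0 and 117, the males 81.0, 37.3 and 68.3. The values within a group differed by up to several fold. Ngfr stood at 31.6, 142, 19.96 and 192 in fluoxetine females, against 45.2, 24.4, 36.0 and 41.1 in the males. Lithium females had 38.5, 34.8 and 55.2, and lithium males 39.9, 39.6, 54.0 and 85.5. The highest library exceeded the lowest by 11.3-fold, and all 28 pairs of groups overlapped. HT against WT vehicle gave 0.59 (SE 0.442, interval of the fold 0.801 to 2.84, limma adjusted p = 0.947), fluoxetine -0.069 (SE 0.442, interval 0.506 to 1.79) and lithium -0.11 (SE 0.459, interval 0.48 to 1.78). Changes of Ngfr within these wide intervals could not be told from none. Between HT and WT vehicle 6 of the 7 cholinergic markers were positive too, with a median of 0.52, and 0 were called.

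The 6 libraries with cholinergic markers had 6 of the 7 highest Ngfr counts. Ngfr was 68.3 to 192 (median 106) in these 6 and 16.9 to 85.5 (median 37.2) in the other 24. Single markers of the list moved with it. Lhx8, a transcription factor of these neurons, was 151 and 152 in HT fluoxetine females 2 and 4 and had a median of 0.971 over all libraries, and Slc5a7, the choline transporter, was 234 and 245 there against a median of 31.3. Lhx8, Gbx1 and Isl1 were at 0 in some libraries. Drd2, the dopamine receptor gene of striatal neurons, was 653 to 1200 in the same 6 libraries and had a median of 44.8. HT lithium male 4 was an exception, with Ngfr at 85.5 but Lhx8 at 0. That library had the highest counts of Dcn (1091, meningeal fibroblasts) and of Th (1569) and Eomes (976), which mark the olfactory bulb. In bulk tissue, fewer cells of a type and less RNA per cell cannot be told apart. With the mean log2 level of 6 of the 7 cholinergic markers as a covariate, chosen after seeing the data, Ngfr gave 0.45 between HT and WT vehicle and 0.26 under lithium, the latter with its sign turned. Without the 6 libraries Ngfr gave 0.24 between HT and WT vehicle (limma adjusted p = 0.932), -0.17 under fluoxetine and 0.45 under lithium. In both settings 0 of the 7 genes were called in any of the 7 comparisons.

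Bdnf and Sort1 ran the other way. Bdnf was 581 to 749 in the 6 libraries with cholinergic markers (median 641) and 653 to 1141 (median 920) in the other 24. Sort1 was 15230 to 17118 (median 16674) in the 6 and 14519 to 18977 (median 17663) in the 24. For both genes the ranges overlapped, but the medians of the 6 libraries were lower. With the same covariate Bdnf gave -0.23 between HT and WT vehicle (limma adjusted p = 0.622), beside -0.26 with no covariate, and -0.24 without the 6 libraries (limma adjusted p = 0.913). Sort1 gave -0.022 without them, beside -0.048. Of the excitatory cortical markers, 8 of 8 were negative between HT and WT vehicle (median -0.095) and 0 were called. The part of the tissue make-up in these differences was not tested.

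**Figure D3:**
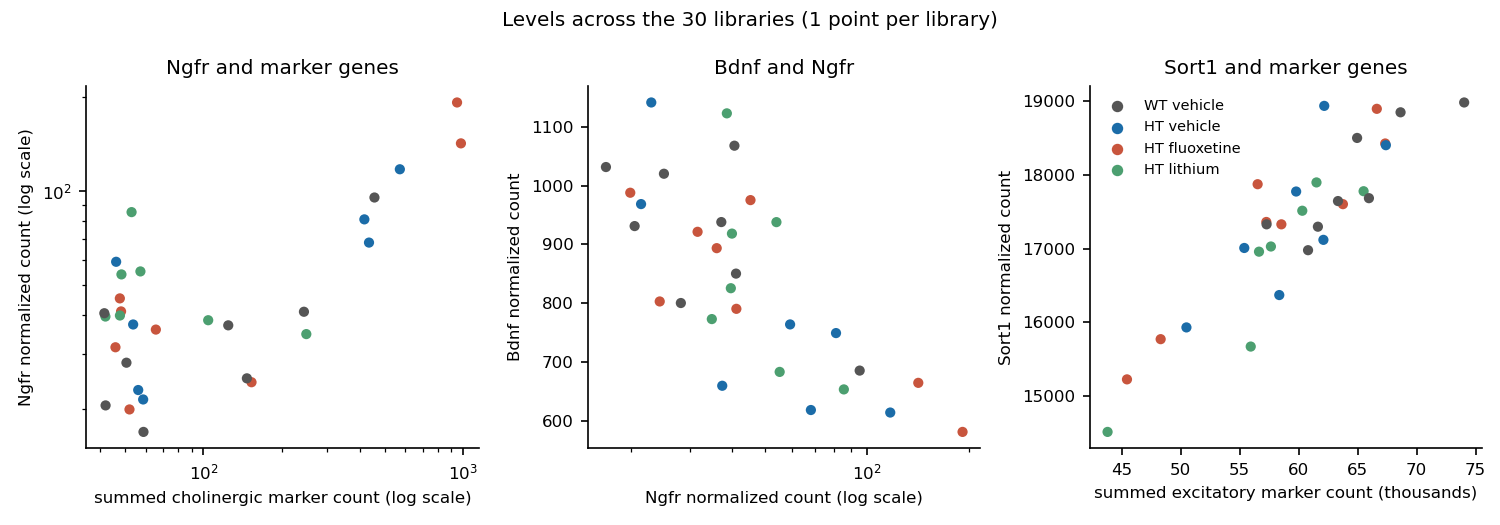
Each point is 1 of the 30 libraries, coloured by genotype and treatment. Left, Ngfr against the summed count of 7 cholinergic markers (both log axes); middle, Bdnf against Ngfr (log horizontal axis); right, Sort1 against the summed count of 8 excitatory cortical markers. The 6 libraries with a cholinergic sum above 400 have Ngfr counts of 68.3 to 192, Bdnf is low where Ngfr is high, and Sort1 rises with the excitatory markers.

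Relations between the 7 genes were measured over the 30 libraries with the mean of each group removed, for 21 pairs. Permutation p-values (100000 resamples within groups, 2-sided) were adjusted over the 21 pairs. The libraries share their depth scaling and tissue make-up, so these are descriptions of libraries and not of cells. Ngfr and Sort1 were opposed (Pearson's r = -0.79, permutation p = 9e-05, adjusted p = 0.00189; Spearman's rho = -0.83, permutation p = 5e-05, adjusted p = 0.00105). So were Bdnf and Ngfr (r = -0.74, permutation p = 0.00093, adjusted p = 0.00924; rho = -0.69, permutation p = 0.0033, adjusted p = 0.0231). Ntf3 and Vgf went together (r = 0.66, permutation p = 0.00132, adjusted p = 0.00924; rho = 0.55, permutation p = 0.00662, adjusted p = 0.0348), as did Ntrk3 and Sort1 (r = 0.57, permutation p = 0.00265, adjusted p = 0.0139; rho = 0.61, permutation p = 0.00185, adjusted p = 0.0194). Bdnf and Sort1 passed by rank only (r = 0.59, permutation p = 0.0163, adjusted p = 0.0685; rho = 0.62, permutation p = 0.0103, adjusted p = 0.0433). Bdnf and its receptor gene Ntrk2 did not pass (r = 0.14, permutation p = 0.6, adjusted p = 0.663), nor did Bdnf and Vgf (r = 0.30, permutation p = 0.161, adjusted p = 0.339).

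Without the 2 libraries farthest from the median of the first gene, the relation of Ngfr with Sort1 was -0.72 and that of Bdnf with Ngfr -0.68, and both still passed. Those of Ntf3 with Vgf (0.58, permutation adjusted p = 0.0801, without HT vehicle female 1 and WT vehicle female 2) and of Ntrk3 with Sort1 (0.51, permutation adjusted p = 0.0801, without HT lithium female 1 and HT vehicle female 3) did not, with values near those over all 30 libraries (0.66 and 0.57). Over the 24 libraries without high cholinergic markers, Ngfr and Sort1 were still opposed (r = -0.80, permutation p = 0.00084, adjusted p = 0.0176). Bdnf and Ngfr no longer passed (r = -0.48, permutation p = 0.0546, adjusted p = 0.115), and neither did Ntrk3 and Sort1 (0.46, permutation adjusted p = 0.131). Ntf3 was there opposed to Ngfr (r = -0.69, permutation adjusted p = 0.0347) and went with Sort1 (0.66) and Vgf (0.70, both at the same adjusted p). No value was computed among the 6 libraries alone. Marker scores of striatum and olfactory bulb were also removed from the values of all 30 libraries. The r of Ngfr with Sort1 was then -0.42, that of Bdnf with Ngfr -0.48 and that of Bdnf with Sort1 0.25. Ntf3 with Vgf gave 0.44, Ntrk3 with Sort1 0.57 and Bdnf with Vgf 0.63. That setting was chosen later and has no p-values.

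**Figure D4:**
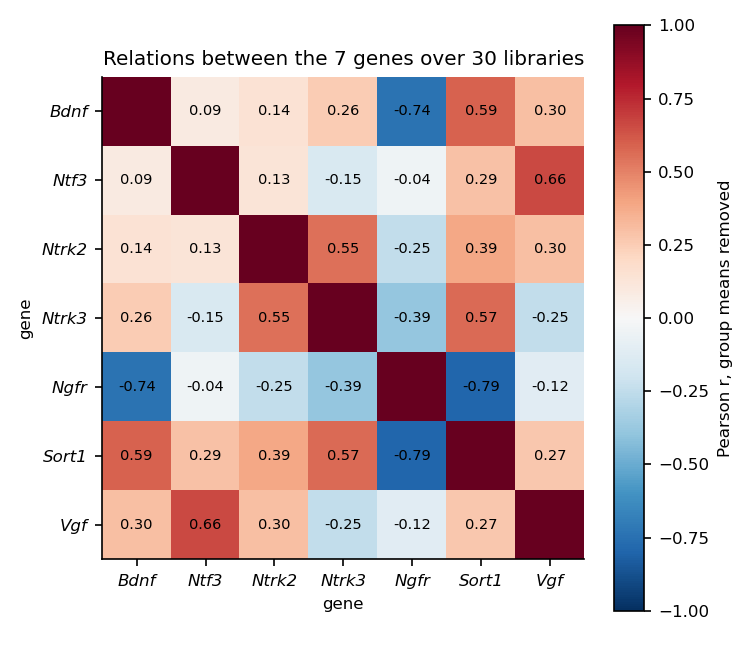
Pearson's r between each pair of the 7 genes (both axes) over 30 libraries with group means removed; red is positive and blue negative. The strongest entries are Ngfr with Sort1 (-0.79), Bdnf with Ngfr (-0.74) and Ntf3 with Vgf (0.66).

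The same measure was taken between each of the 7 genes and 17 lists of cell type and region markers (119 relations, permutation p-values adjusted over all). Sort1 followed the excitatory cortical markers (r = 0.88, permutation adjusted p = 0.00565; rho = 0.83, permutation adjusted p = 0.00714; r = 0.82 without the 2 farthest libraries). Bdnf followed them too (r = 0.68, permutation adjusted p = 0.0144; rho = 0.69, permutation adjusted p = 0.0157; 0.61 without the 2 farthest), and Ngfr was opposed to them (r = -0.76, permutation adjusted p = 0.00565; rho = -0.81, permutation adjusted p = 0.00238; -0.74). Ntf3 was opposed to the astrocyte markers (r = -0.80, permutation adjusted p = 0.00565; rho = -0.73, permutation adjusted p = 0.00714; -0.69), and Vgf to markers of mural cells of the vessel wall (r = -0.74, permutation adjusted p = 0.00575; rho = -0.70, permutation adjusted p = 0.00748; -0.62). Neither was particular to that list. Ntf3 was also opposed to markers of olfactory ensheathing or Schwann cells (-0.72), thalamus and hypothalamus (-0.70) and olfactory bulb (-0.68). Vgf was also opposed to meningeal fibroblast and endothelial markers (-0.70 each). The positive relations that passed were Ntf3 with striatal (0.50) and cholinergic (0.48) and Vgf with oligodendrocyte (0.46) and striatal markers (0.44). Other neuron lists differed from the excitatory list. With deep-layer markers r was -0.63 for Bdnf, -0.61 for Sort1 and 0.71 for Ngfr (permutation adjusted p = 0.0193, 0.0222 and 0.0193). With upper-layer markers it was 0.21, 0.49 and -0.097, none of which passed. With striatal markers it had the signs of the deep-layer list, at -0.53, -0.44 and 0.67 (permutation adjusted p = 0.064, 0.122 and 0.0347). Of these only Ngfr passed. Whether striatal tissue took part in the deep-layer relations was not tested. Bdnf was also opposed to oligodendrocyte precursor markers (r = -0.72, permutation adjusted p = 0.00918). Ngfr went with the cholinergic markers by Pearson's r (0.72, permutation adjusted p = 0.0242) and did not pass by rank (rho = 0.60, permutation adjusted p = 0.0554). That list did not stand apart from the deep-layer list (0.71) or from precursor (0.63) and choroid plexus markers (0.62, permutation adjusted p = 0.0193 each). Ngfr was opposed to microglia markers (-0.53, permutation adjusted p = 0.0419). By Pearson's r, 10 of 17 lists passed for Vgf, 9 for Ntf3, 7 each for Ngfr and Sort1, 5 for Bdnf, 2 for Ntrk3 and 0 for Ntrk2. The TrkB gene was thus the one of the 7 whose level was not found to move with any marker list. Between HT and WT vehicle Pdgfra (log2 -0.18, limma adjusted p = 0.0303) and Neu4 (-0.21, limma adjusted p = 0.0466), of 7 oligodendrocyte precursor markers, were lower. Of all genes 0.731% were called. The summed count of the 7 was 14128 to 14937 in WT and 13886 to 14472 in HT vehicle females. In males it was 14162 to 15136 and 14188 to 14725, so the ranges overlapped in both sexes. A change in the number of these cells was not tested. For genotype 0 of 7 cholinergic and 0 of 8 excitatory markers were called.

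The genes whose level was most like that of each of the 7 across libraries were ranked by Pearson's r over 30 libraries among 12819 genes with a mean of at least 50. For Bdnf they were Nlk (0.89), Nrn1 (0.87), which encodes neuritin, and Kcnv1 (0.85). For Sort1 they were Camkk2 (0.96), Hecw1 (0.95) and Herc3 (0.94), and for Ngfr Sox1ot (0.92), Sertad4 (0.91) and Rps6ka5 (0.90). Ntf3 was nearest to Reep1, Kcnip3 and Sqle (0.81 each), Vgf to Ubald1 (0.82), Plcl2 (0.82) and Ssbp3 (0.81), Ntrk3 to Fat3 (0.83), Palm2 (0.78) and Vps13c (0.77), and Ntrk2 to Rgl1 (0.75), Camsap2 (0.71) and Map2 (0.71). These are descriptions of points that share libraries.

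Ntf5, which encodes neurotrophin 4, averaged 5.96 normalized counts over the 30 libraries and was under the filter. Of the 9 tested of 10 other ligand and receptor genes, 0 were called by genotype or by either drug. Sorcs1, a sortilin-related receptor gene, was lower in lithium-treated HT (1342 ± 90.3, SD, n = 7) than in WT vehicle libraries (1614 ± 79.3, n = 8), with a log2 fold change of -0.26 (SE 0.0544, limma adjusted p = 0.0064). It was 1512 ± 156 (n = 7) in HT vehicle. The ranges of the lithium (1231 to 1461) and the WT libraries (1516 to 1754) did not overlap. Against HT vehicle lithium gave -0.16 for Sorcs1 (limma adjusted p = 0.769). Without the 6 libraries the difference from WT was still called (limma adjusted p = 0.0326).

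The other pathway genes were grouped in lists by role. The lists were chosen with earlier results of these data known, so counts of called genes describe a list and do not test it. Under fluoxetine against HT vehicle, 1 of 18 regulators of Bdnf transcription rose (Npas4) and 1 of 20 Bdnf-responsive genes (Fos), and 0 fell. Npas4 was 551 to 982 in HT vehicle (median 620, n = 7), 1309 to 1566 under fluoxetine (median 1415, n = 8) and 1110 to 2136 under lithium (median 1792, n = 7). All 15 drug-treated libraries were above all 7 vehicle libraries. It was 638 to 1007 in WT vehicle (median 777, n = 8). The log2 fold change was 1.01 under fluoxetine (SE 0.101, limma adjusted p = 5.26e-06) and 1.21 under lithium (SE 0.105, limma adjusted p = 2.78e-07). Fos, of the AP-1 family and induced by Bdnf as by other stimuli, was 915 to 1342 in HT vehicle (median 1053), 1637 to 2062 under fluoxetine (median 1798) and 1202 to 2667 under lithium (median 2368). It rose by 0.78 (SE 0.0931, limma adjusted p = 5.01e-05) and 0.91 (SE 0.0967, limma adjusted p = 6.08e-06). All fluoxetine libraries exceeded the vehicle libraries, and 1 or more of the lithium libraries lay within their range. Without the 6 libraries of high cholinergic markers Npas4 was still called under both drugs (limma adjusted p = 0.00413 and 0.000158). Fos was still called under lithium (limma adjusted p = 0.014) and no longer under fluoxetine, with a similar fold change (0.77, limma adjusted p = 0.169).

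Under lithium 2 of 20 Bdnf-responsive genes rose, Fos and Egr2, and 0 fell. Egr2, an early response transcription factor, was 342 to 507 in HT vehicle (median 387) and 412 to 987 under lithium (median 871; log2 0.76, SE 0.142, limma adjusted p = 0.0196). Leaving out 1 library at a time ended this call for 8 of 14 libraries, and the limma adjusted p reached 0.0957 without HT vehicle male 2. In a fit of only the groups compared it was 0.728, and without the 6 libraries of high cholinergic markers 0.736, with a log2 fold change of 0.80. The median of the Bdnf-responsive list was 0.086 under fluoxetine and 0.17 under lithium, with 15 and 14 of 20 positive, beside -0.0016 and -0.0039 over all genes tested. Many genes of this list respond to neuronal activity as well as to Bdnf, and the list was chosen with earlier results of these data known. Bdnf itself and Vgf, whose values are given above, were not called in the libraries in which Npas4 and Fos rose.

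**Figure D5:**
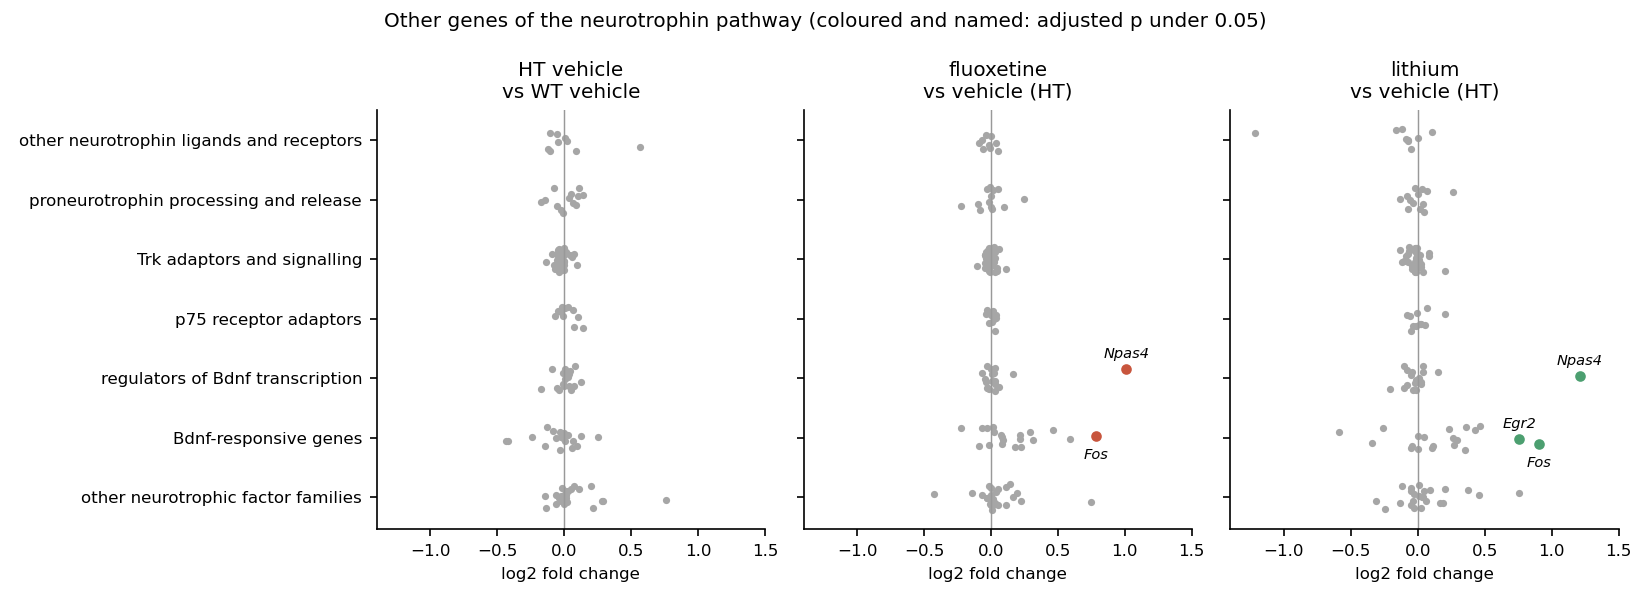
Log2 fold change (horizontal axis) of the genes of 7 pathway lists (vertical axis; points are spread vertically within a list) in 3 comparisons. Grey points did not pass the test. Coloured and named points did: Npas4 and Fos under fluoxetine, and Npas4, Fos and Egr2 under lithium.

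In the comparison of HT with WT vehicle 0 genes of the other lists were called: 0 of 13 processing and release genes, 0 of 40 Trk adaptors and signalling genes, 0 of 11 p75 adaptors, 0 of 18 regulators, 0 of 20 responsive genes and 0 of 24 genes of other neurotrophic families. In the same lists 0, 1, 1, 1, 3 and 0 had an unadjusted p under 0.05 by limma, beside 6.60% of all genes. In the Trk signalling list 32 of 40 were negative, with a median of -0.024, beside -0.0010 over all genes. The share of negative genes over all genes is not given here. The 40 genes share libraries and tissue make-up, so this count describes the list and does not test it. Under either drug against HT vehicle 0 of 40 Trk signalling genes and 0 of 11 p75 adaptors were called, with 0 and 0 at an unadjusted p under 0.05 under fluoxetine (2.63% of all genes) and 3 and 2 under lithium (5.72%).

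Drug-treated HT mice were last set against WT vehicle, which combines genotype and drug. The counts by list are descriptions here too, because the lists were chosen with earlier results of these data known. Under fluoxetine the Bdnf-responsive genes Fos (log2 0.78), Egr2 (0.56), Arc (0.47) and Egr1 (0.34) were higher, 4 of 20 beside 1.49% of all genes called in either direction, as was Npas4 (0.84). Under lithium Fos (0.90), Egr2 (0.73) and Arc (0.47) were higher, 3 of 20 beside 1.97%, as was Npas4 (1.04). Arc, which encodes a synaptic cytoskeletal protein, was 7010 ± 789 (SD, n = 8) in WT vehicle, 9702 ± 1094 (n = 8) under fluoxetine and 10265 ± 2831 (n = 7) under lithium. Crtc1, a CREB coactivator, was lower under lithium (log2 -0.14, limma adjusted p = 0.0202). Irak1, a kinase of p75 signalling, was higher in both (0.17, limma adjusted p = 0.0474, and 0.19, limma adjusted p = 0.0253). Of Trk signalling genes, Mapk7, which encodes ERK5, was lower under fluoxetine (-0.16, limma adjusted p = 0.0431), and under lithium the adaptor gene Shc1 was higher (0.30, limma adjusted p = 0.0484) and the kinase gene Rps6ka2 lower (-0.17, limma adjusted p = 0.0389).

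Several of these calls lay near the threshold. Without the 6 libraries of high cholinergic markers Npas4 and Fos were still called in both, as were Egr2 and Irak1 under lithium. The other calls ended, with fold changes near those over all libraries. That fit has fewer libraries and another tissue make-up, and the part of each in the lost calls was not tested. Under fluoxetine the log2 fold change was then 0.55 for Egr2 (limma adjusted p = 0.204), 0.50 for Arc (0.119), 0.33 for Egr1 (0.215), 0.15 for Irak1 (0.281) and -0.16 for Mapk7 (0.235). Under lithium it was 0.45 for Arc (limma adjusted p = 0.0938), -0.13 for Crtc1 (0.0774), 0.29 for Shc1 (0.0987) and -0.17 for Rps6ka2 (0.0706). Leaving out 1 library at a time ended the call of Mapk7 for 14 of 16, Irak1 for 13 of 16 and 6 of 15, Rps6ka2 for 12 of 15, Shc1 for 11 of 15 and Egr1 for 11 of 16 libraries. It ended that of Egr2 under fluoxetine for 7 of 16, Arc for 3 of 16 and 5 of 15 and Crtc1 for 2 of 15. Crkl, an adaptor gene of Trk signalling, was the 1 gene of these lists called between the sexes, higher in males (1319 ± 48.5 against 1227 ± 52.7, SD, n = 15 each; log2 0.11, limma adjusted p = 0.009). It stayed called with each of the 30 libraries left out in turn, and without the 6 together the difference was also 0.11 but was not called (limma adjusted p = 0.151).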

How the data were processed

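Prefrontal cortex RNA of 30 libraries was sequenced with a stranded mRNA kit. The authors deposited 1 table of gene counts divided by a size factor per library, a signal on a linear scale (normalized counts). Salmon 0.11.2, R 3.6.0, DESeq2 1.19.11 and build GRCm38 are named in the submitters' processing notes without their roles. Annotation release, filters and strand handling: not given in the sources used here. Whole reads were recovered from the steps of the values (100% within 0.01 of a whole number).

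Genes with a mean of at least 10 (16824) were tested on log2(value + 1) with limma 3.58.1 in R 4.3.3, with all 8 groups in 1 fit and sex-averaged contrasts. P-values were adjusted by Benjamini-Hochberg over all genes, with a threshold of 0.05. Fold changes on this scale understate those of low genes. EdgeR 4.0.16 and DESeq2 1.42.0 on the recovered reads were alternatives, as were other scalings, pseudocounts, filters, covariates, blocks and single libraries left out. On simulated data for the genotype comparison (16824 genes) the limma fit recovered 79% of changes of 0.5 and 88% of changes of 1 on the log2 scale. Libraries of 1 group differed by more than sampling noise.

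Named genes were the 7 genes, Ntf5, called genes of the pathway lists (at most 4 per list and comparison), the 3 most alike genes of each of the 7, and marker genes beside results they move with. Members and lists were chosen with earlier results of these data known. Plg, Mmp3, Ngfrap1, Pspn and Gfra3 of the lists had no row in the table used here. Some genes that the rule names are not reported here. Promoters are from RefSeq (4 of 7 genes matched), build GRCm38.p6.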

Additional observations from a re-analysis of the deposited data

Results flagged for a closer look

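Of 42 gene and group combinations of 4 libraries, 2 held a library far from the other 3, where chance gives about 1 in 20. Ntf3 was 27.1 normalized counts in HT fluoxetine female 2, and the nearest of the other females of that group was at 19.96. Ntf3 was 12.1 in HT vehicle female 1, and the nearest other was at 20.5.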

How the results depend on the processing

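Of the 49 results for the 7 genes over 7 comparisons, 0 were called under any of 1469 alternatives, with a smallest adjusted p of 0.0872 (limma, Ntrk2 in lithium-treated HT against WT vehicle). The sign changed 83 times in 17 results, none with a main size above 0.205. Where causes are not named, the cause was not tested.

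The number of genes called by limma moved with the choices as follows. With a mean of at least 50 it was 68 for genotype and 165 for fluoxetine-treated HT against WT vehicle. With striatal and olfactory bulb marker covariates it was 241 for genotype, 14 for fluoxetine, 9 between the drugs, 505 for fluoxetine-treated HT against WT vehicle and 125 for sex. With the cholinergic covariate, chosen after seeing the data, it was 191 for genotype, 5 between the drugs and 76 for sex. Without the 6 libraries of high cholinergic markers it was 44 for genotype, 1 for fluoxetine, 5 for lithium, 2 between the drugs, 120 for fluoxetine-treated HT against WT vehicle and 20 for sex, with fewer libraries in the fit. DESeq2 called 12 for fluoxetine, 14 between the drugs and 79 for sex. With only the groups compared it was 11 for fluoxetine, 5 for lithium and 208 for lithium-treated HT against WT vehicle. Without the 2 farthest libraries 2 relations between the genes passed.

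Signs turned as follows. Ngfr under fluoxetine was 0.023 by edgeR, 0.019 by DESeq2, 0.0046 with striatal and bulb covariates and 0.0048 when both HT lithium male 4 and female 1 of HT vehicle were left out. Without these libraries Ntf3 under fluoxetine was -0.050, Vgf in lithium-treated HT against WT vehicle 0.0019 and Sort1 between the sexes 0.0053. With striatal and bulb covariates Ngfr was 0.050 under lithium and -0.046 between the drugs, and in lithium-treated HT against WT vehicle Ntf3 was 0.024 and Vgf 0.025. With the cholinergic covariate Ngfr was 0.26 under lithium and -0.28 between the drugs, and Bdnf between the drugs 0.047. Without the 6 libraries of high cholinergic markers Ngfr was 0.45 under lithium and -0.62 between the drugs, Bdnf 0.12 between the drugs, Ntrk3 0.0028 for genotype and Sort1 0.023 under fluoxetine, and in fluoxetine-treated HT against WT vehicle Sort1 was 0.00062 and Vgf -0.0050. Between the sexes Ngfr was -0.067 by edgeR and -0.061 by DESeq2, and Sort1 0.0013 after TMM scaling. The relation of Bdnf with Ntrk2 was -0.22 without the 2 farthest and -0.11 without the 6 libraries of high cholinergic markers, that of Bdnf with Ntrk3 -0.10 without the 6, and that of Ntf3 with Ngfr 0.077 without the 2 farthest.

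Leaving out each replicate in turn gave 3 to 7 genes called for fluoxetine (3 when any one of these was out: fluoxetine females 2 and 4, fluoxetine males 2 and 4, HT vehicle females 2 and 4, HT vehicle males 1 and 2). It gave 8 to 16 for lithium (8 without HT lithium female 1, 9 without HT lithium male 3), 0 to 4 between the drugs (4 without HT lithium female 1) and 196 to 503 for lithium-treated HT against WT vehicle (196 without lithium female 3, 503 without lithium male 2, and 219 when WT vehicle female 3 was out). For Ngfr it gave -0.33 to 0.21 under fluoxetine, -0.28 to 0.12 under lithium, -0.21 to 0.32 between the drugs and -0.051 to 0.22 between the sexes. For Ntf3 it gave -0.070 to 0.14 under fluoxetine, -0.019 to 0.20 under lithium and -0.14 to 0.0074 between the drugs. Between the drugs Bdnf ran from -0.11 to 0.073 and Ntrk2 from -0.0018 to 0.052. Sort1 ran from -0.030 to 0.022 under fluoxetine and from -0.013 to 0.017 between the sexes. Vgf ran from -0.043 to 0.077 under lithium, from -0.0064 to 0.069 in fluoxetine-treated HT and from -0.12 to 0.0019 in lithium-treated HT against WT vehicle.

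The replicate numbers of the titles are not stated to pair mice, and deviations of same-numbered libraries correlated from -0.43 to 0.037 in males on fluoxetine and vehicle and from 0.17 to 0.28 in HT and WT vehicle males. With the title number as a block, genes called were 117 for genotype, 7 for fluoxetine, 14 for lithium, 0 between the drugs, 222 and 338 against WT vehicle and 29 for sex; with the number in the library name they were 119, 7, 15, 0, 238, 272 and 29. Under the block Sort1 under fluoxetine was 0.010 or 0.0080, Bdnf between the drugs 0.0094 and Ngfr -0.062. In the drug comparisons against WT vehicle the block gave limma adjusted p-values of 0.0510 or 0.0525 for Mapk7, 0.0520 for Irak1, 0.0511 for Egr1 and 0.0618 or 0.0747 for Shc1.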
